A study of Rattus norvegicus with 18 samples.

Results

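The nicotinic acetylcholine receptor (AChR) of skeletal muscle is built from the products of 5 genes, Chrna1, Chrnb1, Chrnd, Chrne and Chrng, and the arrays measured these 5 of 14217 named genes with 6 of their 31042 non-control probe sets, chosen as every probe set that carries 1 of the 5 gene symbols. Each receptor is a pentamer in which the alpha subunit (Chrna1) occurs more than once and carries most of each acetylcholine binding site, beside beta (Chrnb1), delta (Chrnd) and either epsilon (Chrne, in the adult receptor) or gamma (Chrng, in the fetal one). The receptors lie packed at the endplate, the patch of muscle membrane under the motor nerve terminal, and the muscle nuclei beneath it are known to transcribe the subunit genes most. After denervation the subunit genes are also transcribed along the rest of the fibre, and gamma comes back. Myasthenia gravis is in most patients caused by antibodies against this receptor, many of which bind the alpha subunit, and the extraocular muscles are often the first to weaken.

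RNA came from 3 muscles of female Lewis rats that entered the study at an age of 6 to 8 weeks, the diaphragm (DIA), the extensor digitorum longus of the hindlimb (EDL) and the extraocular rectus muscles (EOM). Rats with experimental autoimmune myasthenia gravis (EAMG) had received 40 µg of purified Torpedo AChR, the receptor of the electric ray, in complete Freund's adjuvant with 0.5 mg of added mycobacterium. Control rats had received the adjuvant mixture without AChR, so both groups carried the adjuvant. Muscles were taken at week 6 after immunization and pooled from several rats (3 per pool in the sample labels, 4 to 5 in the study's methods), and each of the 6 combinations of muscle and treatment had 3 pools with 1 array each, 18 arrays in all. Values are linear signals scaled to 1 common target, and differences are on the log2 scale with their standard error (SE) from 1 model over all 18 arrays. A change was called at an adjusted p below 0.05 over 12238 probe sets, those whose signal was 400 or more on 1 array or several. Pools of whole muscle hold every cell of that muscle, and fewer cells of a type and less RNA per cell cannot be told apart in them.

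The arrays were alike in their median signal, 129 to 163, and 27.9% to 31.1% of the non-control probe sets reached 400 on each. A group of 4 EAMG arrays stood apart in other measures. A pair had little signal of the poly-A control RNAs, which averaged 869.9 for DIA EAMG 2 and 608 for EOM EAMG 2, while the 16 remaining arrays had 11193 to 26641. On DIA EAMG 3 the 3' to 5' signal ratio of the GAPDH control was 2.66, against 1.06 to 1.33 elsewhere. EDL EAMG 2 had more signal of slow-fibre genes than the other EDL arrays, with Myh7, the slow myosin heavy chain, at 48748 against 15533 to 26168, and it also had the highest Chrna1, Chrnd and Chrne signals of the EDL arrays. The EOM labels matched Myh13, the extraocular myosin heavy chain. It stood at 17345 to 27949.6 on EOM EAMG arrays and 24384 to 27688 on EOM control arrays, and at no more than 323 on any DIA or EDL array. Markers of DIA and EDL were mixed on EDL EAMG 2. Its Myh7 lay above that of every DIA array (35067 to 42602). Its Myh4, a fast myosin heavy chain, was 32051, against 2191 to 11564 on DIA arrays.

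The proximal promoters are shown because the subunit genes are known to share short control elements. The E-box, written CANNTG, is the element bound by the myogenic factors, and the N-box, CCGGAA, is known from mouse and human subunit genes as an element of transcription at the endplate. The 120 bases before each RefSeq start site (rat build GRCr8) follow on the strand of the gene, with every E-box or N-box on either strand in capitals.
Chrna1, chr3:78877354-78877473, minus strand: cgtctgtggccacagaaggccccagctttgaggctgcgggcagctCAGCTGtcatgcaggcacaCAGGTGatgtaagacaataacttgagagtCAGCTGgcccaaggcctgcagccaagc
Chrnb1, chr10:55015108-55015227, minus strand: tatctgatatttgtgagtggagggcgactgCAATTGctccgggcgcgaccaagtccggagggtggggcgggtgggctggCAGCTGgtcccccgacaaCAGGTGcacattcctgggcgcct
Chrnd, chr9:95310196-95310315, plus strand: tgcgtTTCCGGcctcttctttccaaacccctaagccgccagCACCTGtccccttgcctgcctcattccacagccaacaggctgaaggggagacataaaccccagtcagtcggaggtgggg
Chrne, chr10:55834155-55834274, minus strand: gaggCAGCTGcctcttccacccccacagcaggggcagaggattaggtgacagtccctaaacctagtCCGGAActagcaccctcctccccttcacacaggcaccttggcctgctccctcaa
Chrng, chr9:95325864-95325983, plus strand: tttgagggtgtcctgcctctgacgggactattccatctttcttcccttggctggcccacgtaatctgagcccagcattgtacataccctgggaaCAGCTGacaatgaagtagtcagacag

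The alpha and beta promoters held 3 E-boxes each and no N-box in these bases. The delta and epsilon promoters held 1 E-box and 1 N-box each, the N-box of delta being on the opposite strand (TTCCGG as printed). The gamma promoter held 1 E-box near the start and 2 more further out, within 250 bases, and no N-box. Of 33469 rat promoters in the same table, 39.4% held at least 1 E-box in the 120 bases before the start, 1.9% held at least 3, and 8.64% held an N-box on either strand. No E-box shared a base with an N-box in the 5 promoters, and the matches are a description of letters, not of binding. The delta and gamma genes are neighbours on chromosome 9, and beta and epsilon both lie on chromosome 10.

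The signal minimum was passed by 4 of the 6 probe sets, 1 each for Chrna1 (1369843_at), Chrnb1 (1369091_at), Chrnd (1368734_at) and Chrne (1369137_at). Chrna1 reached 400 on 18 of 18 arrays, Chrnb1 on 16, Chrnd on 14 and Chrne on 9. The gamma probe set (1387727_at) reached 400 on 0 of 18 arrays, and passed 80, the level that the study's methods imply as background, on 1 array. A second Chrnb1 probe set (1379870_at) ran from 4.42 to 89.5 with 0 arrays at 400, so the description of beta rests on the first. The 11 probe sets of the other nicotinic subunits, those of neurons and other tissues, were below 400 on all arrays, with the highest at 255 for Chrna4, 154 for Chrna7 and 130 for Chrna6.

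**Figure D1:**
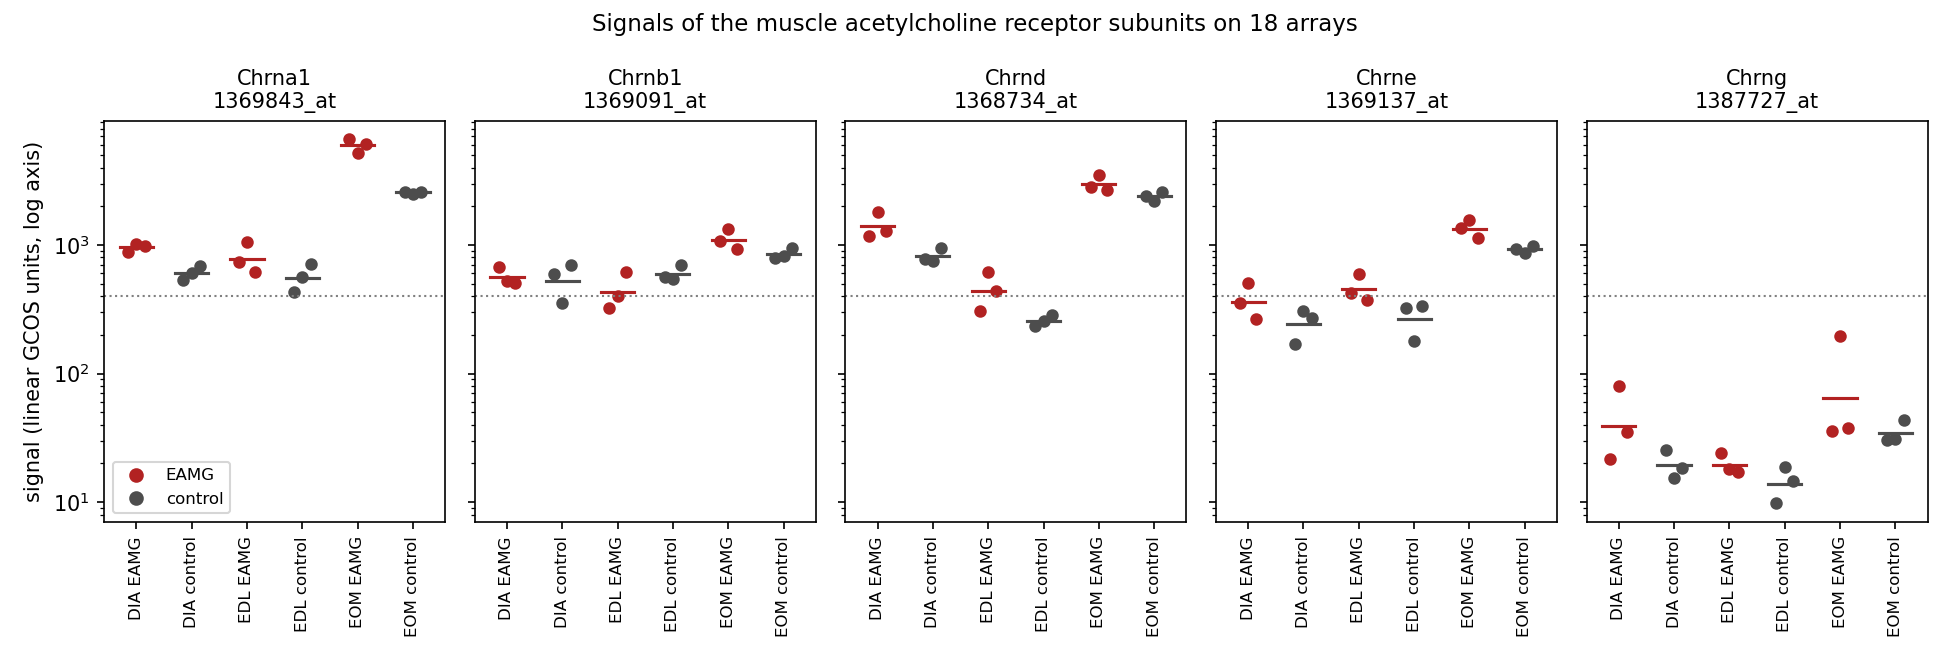
Signals of the 5 subunit genes on a log axis, with 1 point per array, EAMG (red) left of control (grey) in each muscle, a bar at the mean of the log2 signals and a dotted line at a signal of 400. EOM arrays stand highest for Chrna1, Chrnb1, Chrnd and Chrne, and every Chrng array lies under the dotted line.

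In control rats the receptor genes differed between muscles, and EOM was the high muscle. Delta was 9.24-fold, alpha 4.61-fold and epsilon 3.47-fold higher in EOM than in EDL. All EDL control signals of delta and epsilon, and all DIA control signals of epsilon, lay under 400. The study's methods hold that low signals distort fold values. Of the 4 tested subunits 3 were called higher in EOM than in EDL, where 41.4% of all tested probe sets were called in either direction and 23.1% were called higher. Likewise 3 of 4 were called higher in EOM than in DIA (21.3% called in either direction, 10.6% higher), and 1 of 4, delta, was called higher in DIA than in EDL (24.8% called in either direction, 14.1% higher). All 4 had EOM control arrays wholly above EDL control arrays, as did 31.2% of all tested probe sets, and all 4 had them above DIA control arrays (22.7%), while 1 had DIA above EDL (22.8%).

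Chrnd, the delta subunit, differed among all 3 muscles. Its signals were 2412, 2182 and 2573 on EOM control arrays, 776, 748 and 951 on DIA control arrays, and 234, 257 and 286 on EDL control arrays. No array of 1 muscle reached into the range of another. The difference was 3.21 (SE 0.22, adjusted p = 5.40e-08) for EOM over EDL, the 83rd highest of 12238 probe sets, 1.54 (SE 0.22, adjusted p = 1.06e-04) for EOM over DIA, and 1.67 (SE 0.22, adjusted p = 8.16e-05) for DIA over EDL.

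Chrna1, the alpha subunit, was high in EOM and at overlapping levels in the other two muscles. Its signals were 2588, 2508 and 2596 on EOM control arrays, 529.9, 608 and 689 on DIA control arrays, and 429.6, 562 and 710.2 on EDL control arrays. The EOM arrays lay above all others, and the DIA and EDL arrays overlapped. Alpha was 2.21 (SE 0.20, adjusted p = 7.75e-07) higher in EOM than in EDL and 2.08 (SE 0.20, adjusted p = 2.14e-06), or 4.23-fold, higher in EOM than in DIA, while DIA and EDL differed by 0.12 (95% confidence interval -0.29 to 0.54, adjusted p = 0.69).

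Chrne, the subunit of the adult receptor, was also high in EOM. Its signals were 937, 863 and 986 on EOM control arrays, 170.3, 305 and 271 on DIA control arrays, and 323, 178 and 333 on EDL control arrays. EOM again stood clear of both other muscles, which overlapped. Epsilon was 1.79 (SE 0.29, adjusted p = 1.54e-04) higher in EOM than in EDL and 1.94 (SE 0.29, adjusted p = 1.59e-04), or 3.84-fold, higher in EOM than in DIA, and DIA minus EDL was -0.15 (-0.75 to 0.46, adjusted p = 0.752).

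Chrnb1, the beta subunit, through which rapsyn holds the receptor in clusters, had the smallest EOM differences of the 4. Its signals were 793, 816 and 954 on EOM control arrays, 591, 355 and 704 on DIA control arrays, and 563, 548 and 694 on EDL control arrays. All EOM control arrays were above all DIA and EDL control arrays, by 0.69 (SE 0.25, adjusted p = 0.0669) over DIA and 0.51 (SE 0.25, adjusted p = 0.121) over EDL, and neither difference passed the threshold. The difference over EDL passed when only these groups were fitted (adjusted p = 0.0231) or when signals were taken relative to 4 contractile genes (0.84, adjusted p = 0.0272). The difference over DIA passed without DIA control 3 (adjusted p = 0.0331) and without EDL EAMG 3 (adjusted p = 0.0391).

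Chrng, the fetal subunit, was near background in every muscle of control rats, at 30.5, 31.2 and 43.6 in EOM, 25.3, 15.4 and 18.5 in DIA, and 9.76, 18.8 and 14.6 in EDL. The EOM arrays were all higher than the DIA and EDL arrays. In a fit without the signal minimum, where 14.4% of probe sets were called for EOM against EDL, 6.16% for EOM against DIA and 6.29% for DIA against EDL, EOM minus EDL was 1.31 (SE 0.58, adjusted p = 0.163), EOM minus DIA 0.84 (SE 0.58, adjusted p = 0.547) and DIA minus EDL 0.48 (SE 0.58, adjusted p = 0.735). The first of these passed without the low poly-A pair of arrays (adjusted p = 0.00926), without EOM EAMG 2 alone (adjusted p = 0.0432) and without the 4 arrays that stood apart (adjusted p = 0.0134), but all these signals lay under 80.

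**Figure D2:**
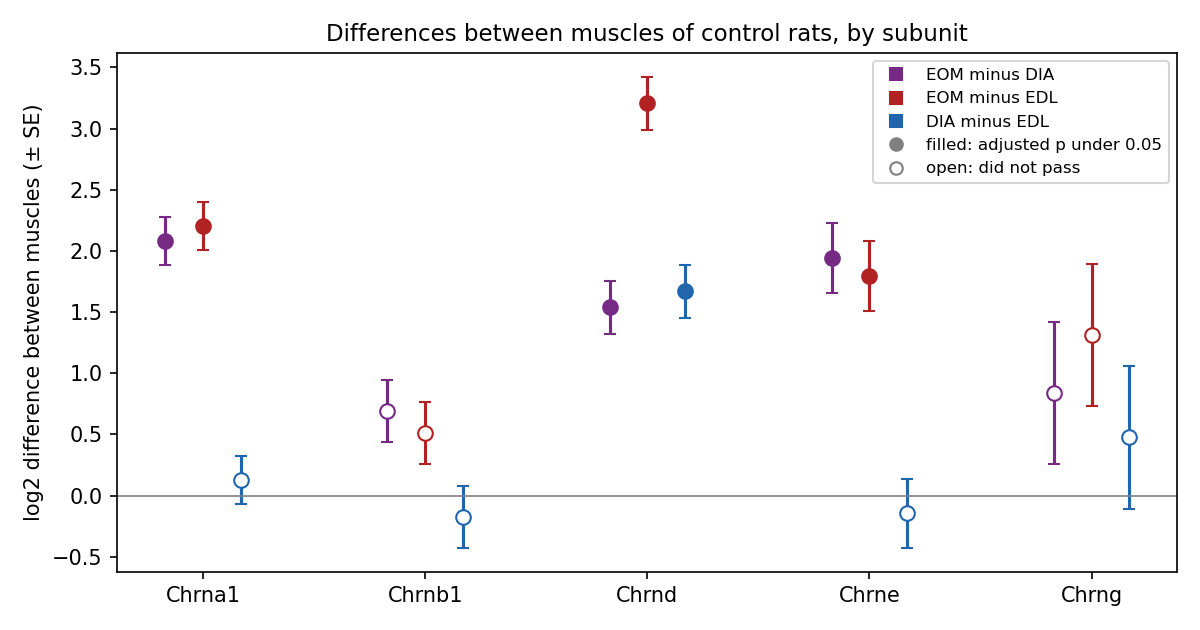
Log2 difference between muscles of control rats for each subunit, with bars of 1 SE and filled points at an adjusted p under 0.05, Chrng being taken from the fit without a signal minimum. Chrnd differs in all 3 comparisons, Chrna1 and Chrne in both that hold EOM, and Chrnb1 and Chrng in none.

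With EAMG, alpha, delta and epsilon rose as a mean over the 3 muscles, and beta did not pass. The SE and p-values of this mean treat the arrays of the 3 muscles as independent, although their pools are likely to share rats. In this mean Chrna1 was 1.73-fold, Chrne 1.54-fold and Chrnd 1.53-fold higher in EAMG than in control, and Chrnb1 had a mean change of -0.01 (SE 0.15, 95% confidence interval -0.32 to 0.30, adjusted p = 0.963). Of the 4 tested subunits 3 were thus called higher, where 20.4% of all tested probe sets were called in either direction and 10.5% were called higher. Within single muscles fewer passed: DIA had 0 of 4 (2.68% of all called in either direction, 1.53% higher), EDL 1 of 4 (6.59%, and 3.37% higher) and EOM 1 of 4 (1.5%, and 0.964% higher). At an unadjusted limma p under 0.05 DIA had 2 of 4 (19.9% of all tested probe sets), EDL had 3 (23.7%) and EOM had 1 (13.1%). The 4 subunits had a median change of 0.63 in both DIA and EDL and 0.44 in EOM, beside medians near 0 over all tested probe sets (0.01 in DIA, -0.003 in EDL and 0.0006 in EOM). The EAMG arrays lay wholly above the control arrays for alpha and delta in DIA (13.3% of all tested probe sets did so there), for delta and epsilon in EDL (12.6%), and for alpha, delta and epsilon in EOM (12.5%).

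Chrna1 rose in EOM. Its signals there were 6662, 5176 and 6133 on EAMG arrays, against 2588, 2508 and 2596 on control arrays. Every EAMG array was at least 1.99 times every control array, and 7 of the 9 pairwise ratios reached 2. The change was 1.22 (SE 0.20, 95% confidence interval 0.80 to 1.63), or 2.32-fold, with an adjusted p of 0.00533, which placed it 38th by p among all tested probe sets. The call held without any single array, with adjusted p-values between 0.00165 and 0.0342.

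In DIA, Chrna1 signals were 883, 1017 and 988 on EAMG arrays, against 529.9, 608 and 689 on control arrays. All EAMG arrays were higher, but the change of 0.67 (SE 0.20, 1.59-fold) did not pass across all probe sets (adjusted p = 0.0785), and leaving out single arrays made it pass only without EDL EAMG 2 (adjusted p = 0.0451). In EDL, signals were 733, 1054 and 612 on EAMG arrays, against 429.6, 562 and 710.2 on control arrays. These overlapped, and the change of 0.49 (SE 0.20, 1.40-fold) did not pass (adjusted p = 0.148). The mean change over the 3 muscles was 0.79 (SE 0.11, adjusted p = 3.99e-04).

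Chrnd had EAMG arrays wholly above control arrays in all 3 muscles and passed in EDL. In DIA its signals were 1179.7, 1795 and 1287 on EAMG arrays, against 776, 748 and 951 on control arrays. In EDL they were 307, 621 and 442 on EAMG arrays, against 234, 257 and 286 on control arrays. The groups did not overlap in either muscle, and the change was 1.70-fold in each, 0.77 (SE 0.22, adjusted p = 0.0689) in DIA and 0.77 (SE 0.22, adjusted p = 0.0477) in EDL, of which the second passed the threshold and the first did not. In EOM, signals were 2809.6, 3471 and 2664 on EAMG arrays, against 2412, 2182 and 2573 on control arrays, again without overlap, for a change of 0.31 (-0.15 to 0.78, adjusted p = 0.585). The mean change was 0.62 (SE 0.13, adjusted p = 0.00374).

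The delta call in EDL was near the threshold, and the EDL control signals behind it were all under 400. It was kept without DIA EAMG 1, DIA EAMG 2, EDL EAMG 1 or EOM EAMG 2 and lost without any 1 of the other 14 arrays, where the adjusted p was 0.0531 to 0.179 and the change at its lowest, 0.51, without EDL EAMG 2, the array with high slow-fibre signals. The delta difference in DIA passed without DIA EAMG 1, EDL EAMG 1 or EDL EAMG 2, when 100 was added to each signal (adjusted p = 0.0476), with the replicate number as a block (adjusted p = 0.0483) and with the trend and robust options of limma (adjusted p = 0.0491). It was 0.59 (adjusted p = 0.284) without the low poly-A pair of arrays.

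Chrne had changes of 0.53 to 0.77 in the 3 muscles and passed in none of them alone. Its signals in EOM were 1363, 1568 and 1123 on EAMG arrays, against 937, 863 and 986 on control arrays, a change of 0.53 (SE 0.29, 1.44-fold, adjusted p = 0.459). In EDL they were 424, 597 and 372 on EAMG arrays, against 323, 178 and 333 on control arrays, a change of 0.77 (SE 0.29, 1.70-fold, adjusted p = 0.118). In both muscles the EAMG arrays were all higher. In DIA, signals of 354, 503 and 267 on EAMG arrays overlapped with 170.3, 305 and 271 on control arrays, for a change of 0.58 (SE 0.29, adjusted p = 0.271). The mean change of 0.63 (SE 0.16, 95% confidence interval 0.28 to 0.98) passed (adjusted p = 0.0157), but not without the low poly-A pair of arrays (0.51, adjusted p = 0.0622) or the 4 arrays that stood apart (0.51, adjusted p = 0.125), nor with no signal minimum (adjusted p = 0.063).

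Chrnb1 did not pass in any muscle, and its groups overlapped in all 3. Signals were 1067, 1319 and 922 on EOM EAMG arrays, against 793, 816 and 954 on EOM control arrays, a change of 0.36 (SE 0.25, adjusted p = 0.596). In EDL the EAMG mean was the lower one, with 321, 401 and 613 on EAMG arrays, against 563, 548 and 694 on control arrays, a change of -0.48 (-1.02 to 0.06, adjusted p = 0.266). In DIA, signals of 675, 524 and 503 on EAMG arrays lay within the spread of 591, 355 and 704 on control arrays, with a change of 0.09 (SE 0.25, adjusted p = 0.878).

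Chrng was highest on 1 EAMG array in EOM and on 1 in DIA, and it was not called in any muscle. In EOM the EAMG arrays read 35.5, 197 and 37.9, against 30.5, 31.2 and 43.6 on control arrays, and the high value was that of EOM EAMG 2. In DIA they read 21.8, 79.5 and 34.8, against 25.3, 15.4 and 18.5 on control arrays. The highest value was that of DIA EAMG 2, and DIA EAMG 3 also lay above every control array. EOM EAMG 2 and DIA EAMG 2 are the low poly-A pair, which also had the highest delta and epsilon signals of their groups. In EDL the EAMG arrays read 24.1, 18.2 and 17.1, against 9.76, 18.8 and 14.6 on control arrays, and the groups overlapped in all 3 muscles. In the fit without a signal minimum, in which 0.116% of probe sets were called in DIA, 0.509% in EDL and 0.126% in EOM, gamma was not called anywhere, with changes of 1.02 (SE 0.58, adjusted p = 0.498) in DIA, 0.49 (SE 0.58, adjusted p = 0.795) in EDL and 0.89 (SE 0.58, adjusted p = 0.773) in EOM. Its mean change was 0.80 (SE 0.34, unadjusted 95% confidence interval 0.08 to 1.52, adjusted p = 0.202, where 4.08% were called). With single arrays left out, the change in EOM ran from 0.08, without EOM EAMG 2, to 1.32. That in DIA ran from 0.51, without DIA EAMG 2, to 1.44. A shift of gamma against epsilon, the fetal and adult subunits that replace each other, was not detectable at these signals, since the log2 difference of their probe sets on the same array overlapped between EAMG and control in all 3 muscles.

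**Figure D3:**
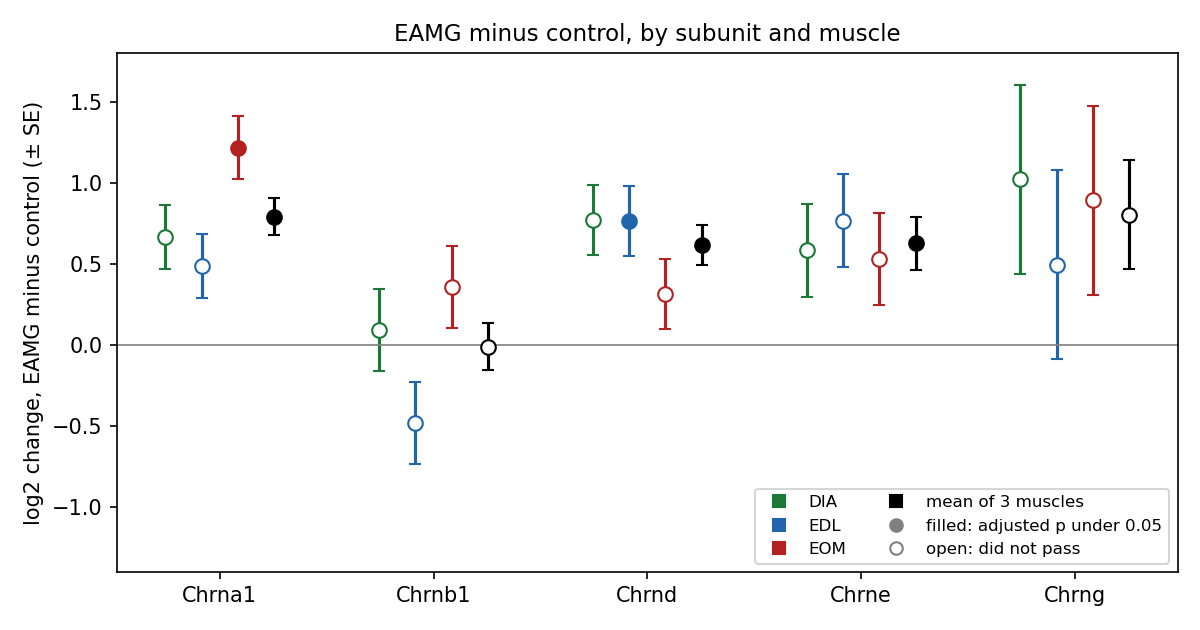
Log2 change of each subunit, EAMG minus control, in DIA, EDL, EOM and as the mean of the 3 muscles, with bars of 1 SE and filled points at an adjusted p under 0.05, Chrng being taken from the fit without a signal minimum. Chrna1 has its largest change in EOM, 1.22, and the mean is past the threshold for Chrna1, Chrnd and Chrne.

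Over the 6 groups, delta fell into 6 separate steps. The order of Chrnd means was EOM EAMG (2982 ± 429.7, SD, n = 3), EOM control (2389 ± 197), DIA EAMG (1420.3 ± 328), DIA control (825 ± 110.2), EDL EAMG (457 ± 157) and EDL control (259 ± 26.1), with no overlap between any neighbours in that order, which held for 0.0899% of all tested probe sets. This order was noticed in the values and is given as a description. For Chrna1 the 2 EOM groups (EAMG 5990.3 ± 753, control 2564 ± 48.6) stood apart from each other and from the DIA and EDL groups, and DIA EAMG (963 ± 70.4), EDL EAMG (799.7 ± 229), DIA control (609 ± 79.4) and EDL control (567 ± 140.4) overlapped from each to the next. Chrne had the same break below EOM control (EAMG 1351 ± 223, control 928 ± 61.9), above EDL EAMG (464 ± 118), DIA EAMG (374 ± 119), EDL control (278 ± 86.8) and DIA control (249 ± 70.2), whose neighbours overlapped. For Chrnb1 the 2 EOM groups overlapped (EAMG 1103 ± 201, control 855 ± 87.1), and both lay above the 4 others, whose neighbours overlapped.

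Whether EAMG changed a subunit more in one muscle than in another was tested directly, and 0 of 4 subunits passed in any of the 3 comparisons, in which 0.106% (EOM against EDL), 0.0163% (EOM against DIA) and 0.0163% (DIA against EDL) of tested probe sets were called. At an unadjusted limma p under 0.05 it was 2 of 4 for EOM against EDL (10.1% of all tested probe sets), 0 for EOM against DIA (6.5%) and 0 for DIA against EDL (5.31%). The widest gaps were between EOM and EDL, 0.84 (SE 0.36, unadjusted interval 0.07 to 1.60, adjusted p = 0.442) for Chrnb1 and 0.73 (SE 0.28, 0.14 to 1.32, adjusted p = 0.388) for Chrna1. Alpha had the higher EAMG change in EOM, while the beta changes lay on opposite sides of 0, above it in EOM and below it in EDL. For Chrnd the change in EOM minus that in EDL was -0.45 (SE 0.31, -1.11 to 0.20, adjusted p = 0.674), the other way round. For Chrne it was -0.24 (SE 0.40, -1.10 to 0.62, adjusted p = 0.896). On the same EOM arrays, log2 Chrna1 minus log2 Chrne was 1.72 to 2.45 with EAMG, against 1.40 to 1.54 in control, whereas log2 Chrnd minus log2 Chrne was 1.04 to 1.25 with EAMG, against 1.34 to 1.38 in control. Log2 Chrnb1 minus log2 Chrne was -0.35 to -0.25 with EAMG, against -0.24 to -0.05 in control. None of the 3 pairs of ranges overlapped, but neither did those of 63.9% of all tested probe sets set against Chrne in the same way, so this separation is not particular to the subunits. In DIA all 3 differences overlapped between EAMG and control, and in EDL those of alpha and delta did.

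Genes that place and hold the receptor at the endplate were mostly not called with EAMG, which was also true of all tested probe sets. Of 15 tested genes of endplate assembly and signalling, 0 were called by limma in DIA, EDL or EOM. Of all tested probe sets 2.68%, 6.59% and 1.5% were called there. At an unadjusted limma p under 0.05 the 15 genes had 3, 2 and 1 (19.9%, 23.7% and 13.1% of all tested probe sets). Dok7, an activator of the receptor tyrosine kinase MuSK, had the largest change in EOM, 0.52 (adjusted p = 0.111). In the mean over muscles 1 of the 15 was called, Ufsp1, lower at -0.51 (adjusted p = 0.0062), where 20.4% of all tested probe sets were called in either direction. Between muscles of control rats 9 of 15 were called higher in EOM than in EDL and 0 lower (23.1% of all tested probe sets were called higher), 6 higher in EOM than in DIA (10.6%), and 4 higher and 1 lower in DIA than in EDL (14.1% higher). Lrp4, the receptor for the nerve's signal agrin, had 2203 to 2814 on EOM control arrays, 547 to 675 on DIA control arrays and 457 to 590.5 on EDL control arrays. The Lrp4 difference was 2.28 for EOM over EDL (adjusted p = 4.36e-08) and 2.06 for EOM over DIA (adjusted p = 1.55e-07). Colq, which anchors acetylcholinesterase in the synaptic cleft, was 1.39 (adjusted p = 5.78e-04) higher in EOM than in EDL and 0.98 (adjusted p = 0.0127) higher in DIA than in EDL.

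Of 19 tested genes that control AChR transcription or are known to respond to denervation, 2 were called higher in DIA (1.53% of all tested probe sets were called higher), 3 higher and 1 lower in EDL (3.37% higher), 2 higher in EOM (0.964%), and 5 higher and 2 lower in the mean (10.5% higher). Gadd45a, a stress gene induced by denervation in mouse, was higher in all 3 muscles. It read 7317 to 9806 on EOM EAMG arrays, against 3387 to 3720.2 on EOM control arrays, a change of 1.25 (adjusted p = 0.00414), with 1.18 (adjusted p = 0.00732) in DIA and 1.26 (adjusted p = 0.00302) in EDL. Runx1, a transcription factor known to rise after denervation, was higher in EOM, where it read 1610.5 to 2959 on EAMG arrays, against 426 to 622 on control arrays, a change of 2.14 (adjusted p = 0.00279). A second Runx1 probe set of lower signal had a change of 0.86 there that did not pass (adjusted p = 0.313). Ncam1, an adhesion molecule that spreads over denervated fibres, read 373 to 595 on EDL EAMG arrays, against 212 to 235 on EDL control arrays, a change of 1.13 (adjusted p = 0.00146). Also called in EDL were Myf6, a myogenic factor of the kind that binds E-boxes (0.75, adjusted p = 0.0163), and Id2, an inhibitor of such factors, which fell (-1.37, adjusted p = 0.0326). Myh3, the embryonic myosin heavy chain, was called in DIA (2.92, adjusted p = 0.0258), at 165 to 225 on EAMG arrays, against 11.6 to 82.9 on control arrays. All of these DIA signals lay under 400, a minimum that Myh3 passed only on arrays of other muscles. The size of its change therefore depends on control signals near or under the background level of 80.

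Of 13 tested genes of subunit folding and turnover, 1 was called in a single muscle, in EDL, where 3.37% of all tested probe sets were called higher. It was Trim63, a ubiquitin ligase of muscle wasting, higher at 1.31 (adjusted p = 0.042), with 6079 to 16185 on EAMG arrays, against 3831 to 4631 on control arrays. In DIA Trim63 had a change of 1.39 that did not pass (adjusted p = 0.0516). In the mean over muscles 2 of the 13 were called higher, Trim63 (1.07) and Fbxo32 (0.90), a second such ligase, where 10.5% of all tested probe sets were called higher.

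Markers of other cells were summed over each list, with genes that did not reach 400 included. Of 5 tested markers of Schwann cells, which cover the nerve terminal, 5 were higher in control EOM than in control EDL (23.1% of all tested probe sets were) and 4 than in control DIA (10.6%), with sums of 16757 to 20054 in EOM control, 5836 to 7717 in DIA control and 3705 to 8206 in EDL control, beside the higher subunit signals of EOM. With EAMG the sum in EOM was 16205 to 18791, overlapping with control. Of 7 tested macrophage markers 0 were called by limma with EAMG in any single muscle (2.68% of all tested probe sets were in DIA, 6.59% in EDL and 1.5% in EOM). At an unadjusted limma p under 0.05, DIA had 1 (19.9%), EDL 2 (23.7%) and EOM 0 (13.1%). In the mean over muscles 1 was called higher (10.5% of all tested probe sets were). The sum of the macrophage list in DIA was 9569 to 13200.2 with EAMG, against 6207 to 8980.4 in control. The groups overlapped in EOM (8696 to 20442 with EAMG, 5576 to 11466 in control) and in EDL (1588 to 3668 with EAMG, 1711 to 3478 in control). Between control muscles 7 of the 7 were higher in EOM than in EDL (23.1%), 4 in DIA than in EDL (14.1%) and 0 in EOM than in DIA (10.6%). Genes listed as markers of orbital glands summed in EOM to 10019 to 13342 with EAMG, against 3376 to 5519.5 in control (2 of 6 called higher, beside 0.964% of all tested probe sets). The same list summed to 4244 to 14686 on DIA control arrays. Between control muscles 0 of the 6 were called higher in EOM than in DIA (10.6%) and 1 was called lower. The list is therefore not particular to gland tissue or to EOM. The red blood cell sum was lower with EAMG in every muscle, at 2223 to 3779 with EAMG in EOM, against 8968 to 12604 in control. Muscle fibre markers summed to 292868 to 473478 on EOM EAMG arrays, against 387726 to 415481 on EOM control arrays. The part of these cells, or of their RNA, in the subunit signals was not tested.

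Across the 18 arrays, which share muscle and treatment as sources of variation, the gene most like Chrna1 in log2 signal was Col25a1, a collagen of muscle known from mouse to guide motor innervation (Pearson r = 0.967, and 0.68 for deviations from the 6 group means), followed by Postn, a matrix protein (0.965, 0.51), and Slc66a2 (0.964, 0.59). Most like Chrnd were Ildr2 (0.978, 0.34), Rnase4 (0.977, 0.81) and the tetraspanin Cd9 (0.966, 0.47). Most like Chrne were Tex2 (0.929, 0.40), Ncam1 (0.923, 0.33) and Son (0.920, 0.53), and most like Chrnb1 were the mitochondrial carrier Slc25a11 (0.897, 0.75), the growth factor antagonist Nog (0.882, 0.69) and Hmox2 (0.882, 0.76). Among the 4 tested subunits, which leave out Chrng, Chrna1 and Chrne were the most alike (0.923, 0.34), then Chrna1 and Chrnd (0.845, 0.49), Chrna1 and Chrnb1 (0.751, -0.15), Chrnd and Chrne (0.751, 0.50), Chrnb1 and Chrnd (0.674, 0.37) and Chrnb1 and Chrne (0.655, -0.05). The deviations, which leave out the differences between groups, were positively related among alpha, delta and epsilon and close to unrelated between beta and either alpha or epsilon.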

How the data were processed

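Per the labels, each of 18 pooled RNA samples was hybridised to 1 Affymetrix rat array. The authors made the deposited intensity values with GCOS 2.0, as linear signals scaled to 1 target. The member genes and the gene lists were chosen with earlier results of these data known. Control probe sets (57) were left out, and of the other 31042, 20826 carried 1 gene symbol, 436 several and 9780 none. Signals were log2 transformed, and probe sets at 400 or more on at least 1 array (12238) were fitted with limma 3.58.1 in R 4.3.3, with 1 mean per group, the 3 EAMG effects, their mean and their differences, and the muscle differences of control rats, each with Benjamini-Hochberg adjustment. Members below 400 came from the same fit without the minimum. From each gene list, up to 4 called genes with the largest change were eligible for naming, or the 2 largest where none was called, and likeness names the 3 genes of highest r. Marker sums add linear signals. Promoters are those of RefSeq (GRCr8), searched over 250 bases. The methods say that the study was repeated to produce the replicates, but no source used here ties a replicate number to an experiment, so p-values measure the spread between pools, which may include that between experiments. The methods describe DIA, EDL and EOM as harvested from the pooled rats, so pools of different muscles are likely to share rats. The model treated all arrays as independent. The SE and p-values of the mean over muscles and of differences between muscles do not allow for shared rats. The number of arrays limits precision.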

Additional observations from a re-analysis of the deposited data

How the results depend on the processing

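Of 1297 member values recomputed under an alternative, 1225 kept their direction and their side of the threshold, 22 lost the call, 14 gained one and 36 changed sign, of which 0 were called to begin with. In DIA the count of subunits called, 0, was 1 with 100 added to each signal, with the replicate block and with eBayes trend and robust options, and 0 to 2 with single arrays left out. In EDL the count, 1, was 0 with 100 added, with only the contrast's groups fitted, with no signal minimum, and with both alternatives chosen after seeing the data, which left out 4 arrays or took signals relative to 4 contractile genes, and 0 to 1 with single arrays left out. Although the methods describe repeated experiments, the labels tie no replicate number to one. Each array was compared, by its deviations from the group means, with only the 3 arrays of the other treatment in its muscle. Among these, 14 of 18 arrays correlated best with the array of their own number, where a pair could count from both its arrays. The mean r of these same-number pairs was 0.15, against -0.07 for unlike numbers. Between arrays of different muscles it was 0.06 for the same number and -0.03 for unlike numbers. In the paired analysis with the replicate block the calls over all probe sets were 457 in DIA, 1050 in EDL and 228 in EOM, against 328, 806 and 183 without it. Under other settings these totals were 14, 3 and 176 with only the contrast's groups, 36, 158 and 39 with no minimum, 11, 325 and 153 without 4 arrays, 51, 915 and 126 without the low poly-A pair of arrays, and 83, 140 and 83 relative to contractile genes. Signs changed in these differences, none of them called. The mean Chrnb1 change, -0.01, was 0.047 without 4 arrays and 0.12 relative to contractile genes (-0.11 to 0.059 with single arrays left out), and in DIA it ran from -0.20 to 0.30. EOM minus DIA changes were -0.13 for Chrnb1 without 4 arrays, and for Chrne 0.053 with 100 added and 0.069 without the low poly-A arrays (-0.27 to 0.20). DIA minus EDL changes were -0.048 after quantile normalisation and -0.18 without the low poly-A arrays for Chrnd (-0.25 to 0.25), and -0.44 to 0.11 for Chrne, whose EOM minus EDL change ran from -0.39 to 0.058. Control DIA minus EDL was 0.16 for Chrnb1 and 0.20 for Chrne relative to contractile genes, and with single arrays left out ran from -0.062 to 0.30 for Chrna1, -0.39 to 0.11 for Chrnb1 and -0.44 to 0.11 for Chrne. The causes were not tested. Signals under 80, which hold nearly all of Chrng, limit what can be said of it.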
